A study of Mus musculus with 4 samples.

Results

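Most mammalian mRNAs are spliced from several exons, and a small group is made from genes without introns. The intervals described here are m6A peaks of the mouse brain found in both replicates and lying in such single-exon mRNAs. Each interval is the stretch of bases common to a replicate 1 peak and a replicate 2 peak that overlapped by at least 1 bp. An interval was counted when its midpoint lay in a protein-coding gene whose representative transcript (chosen for its longest coding sequence, CDS) had exactly 1 exon, and in no exon of another gene. This rule used position only, never the height of a peak. It gave 513 intervals in 288 genes out of 23901 shared intervals. Of these, 504 intervals in 287 genes had their midpoint in the single exon itself, and they were 2.64% of the 19097 intervals placed in representative exons of protein-coding genes. The remaining 9 lay elsewhere in the gene (Id2, Gas1, B830017H08Rik, Crebzf, Zfp358, Purg and 3 in Map1lc3b) and entered only the values that need no transcript position. In 439 of the 513, every protein-coding transcript annotated for the gene had 1 exon.

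N6-methyladenosine (m6A) is placed on nascent mRNA by a methyltransferase complex with METTL3 and METTL14 at its core, mostly within the sequence DRACH, of which GGAC is the most common core. In spliced mRNAs the mark is known to gather in long internal exons and around the stop codon, and exon junction complexes deposited during splicing are known to keep methylation away from short internal exons. An intronless mRNA carries no exon junctions, so its whole body can be read as 1 long exon. Intronless genes include transcription factors of the SOX and POU families, the immediate early gene Jun, the clustered protocadherins, many G protein-coupled receptors, replication-dependent histones and the olfactory receptors.

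The series holds 4 libraries from whole brain of C57BL/6J mice aged 4 weeks, 2 of RNA immunoprecipitated with an anti-m6A antibody and 2 of the matching input. The design text gives the genotype as Prrc2a flox/flox, that is with both alleles of the RNA-binding protein gene Prrc2a floxed, and no Cre is named in the labels. All libraries belong to this 1 group, so no condition was compared. The replicate 1 file holds 38533 peaks and the replicate 2 file 30134, each with a position and a value named Enrichment, a linear ratio read here as immunoprecipitated over input signal. Over all shared intervals, not only those in single-exon mRNAs, 18 of 18 markers of neurons, astrocytes, oligodendrocytes and microglia carried one. Of all protein-coding genes 43.1% did. Read counts are not in the peak files used here, so the depth behind a value is unknown.

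The sequences below come from strong intervals and from chosen examples. The first 9 are taken from the 12 intervals with the highest value of the lower of both Enrichments, 1 per gene. Those of Pcdhb11, Pcdhb20 and Pcdhb18 also belong to the 12 and are not printed. Each is the 25 bases around the GGAC nearest to the interval's midpoint, 5′ to 3′ on the gene's strand, with GGAC in capitals (GRCm38, that is mm10). Positions are those of the A in GGAC. A match shows only that these letters are present and is not a mapped methylation site.
Jrkl, CDS, chr9:13244389-13244413, minus strand: gcataccaaaGGACtggaaaatgtg
Lpar6, 23 nt after the stop codon, chr14:73239646-73239670, plus strand: taagccactgGGACtgctccgtgtt
Hspb3, CDS, chr13:113663155-113663179, minus strand: gaaccagaatGGACgaacacgggtt
B630019K06Rik, 3′UTR, chrX:8894386-8894410, plus strand: agcaaatctgGGACttgaactaggg
Adra2c, 3′UTR, chr5:35281353-35281377, plus strand: gtcccagggtGGACttcagggcaca
Mars2, CDS, chr1:55238393-55238417, plus strand: ttaaattgctGGACtccgagctggc
Gm42372, 3′UTR, chr7:16985414-16985438, plus strand: accacagagtGGACaggtgcctgct
Dio3, 12 nt after the stop codon, chr12:110280146-110280170, plus strand: aataaccaagGGACaagtgactgaa
Cd248, 75 nt after the stop codon, chr19:5070486-5070510, plus strand: accacaccaaGGACttatgggggct

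The next set comes from intervals beside stop codons in 3 growth- and activity-induced transcription regulators, a group in which 10 of 15 members lay at that place, and from 4 of the 5 intervals of the serotonin receptor mRNA Htr1a, which was marked from its 5′UTR to its 3′UTR. The other Htr1a interval, in the distal 3′UTR, held no GGAC.
Jun, 128 nt after the stop codon, chr4:95050127-95050151, minus strand: tacacaagatGGACtgggttgcgac
Ier2, 121 nt after the stop codon, chr8:84661953-84661977, minus strand: gccaggggaaGGACtgaggagcgag
Junb, 12 nt before the last base of the stop codon, chr8:84977395-84977419, minus strand: aggggtcaagGGACacgccttctga
Htr1a, 5′UTR, chr13:105443664-105443688, plus strand: gcgacacacaGGACtaaagaaagag
Htr1a, CDS, chr13:105445061-105445085, plus strand: agggcggtggGGACtccgtgcgcta
Htr1a, 84 nt after the stop codon, chr13:105445591-105445615, plus strand: agggcttacaGGACccttcctgttc
Htr1a, 426 nt after the stop codon, chr13:105445933-105445957, plus strand: atgcccactaGGACtgccaccctct

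Members of single-exon mRNAs had higher Enrichment than the intervals of spliced mRNAs in both replicates, and their values were close to those of spliced mRNAs with an uninterrupted coding sequence. Over the 504 members, replicate 1 gave a median Enrichment of 4.04, with quartiles of 3.05 and 5.32. Replicate 2 gave 2.74, with quartiles of 2.28 and 3.33. The 18593 intervals of multi-exon mRNAs had medians of 3.01 and 2.31. The ratio of the medians was therefore 1.34 in replicate 1 and 1.19 in replicate 2, a difference of 0.42 and 0.25 on the log2 scale. The median member stood above 73.7% of the multi-exon intervals in replicate 1 and above 69.7% in replicate 2. Both replicates gave the same direction, and the SD between their log2 differences was 0.124. No test between the kinds of mRNA was made over these 2 values, and the intervals of 1 mRNA are not replicates. Among intervals of both kinds with at least 2-fold Enrichment in both replicates, the log2 differences narrowed to 0.22 and 0.09.

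Enrichment of at least 2 in both replicates was reached by 430 of 504 members, or 85.3% (95% Wilson interval 82.0 to 88.1%), where 62.7% of all placed intervals reached it. The multi-exon share was 62.1%, 23.3 percentage points lower. Much nearer were multi-exon mRNAs with their CDS in 1 exon, with 80.7%, a difference of 4.62 points (95% Newcombe interval 0.386 to 8.65). Internal exons over 400 nt reached 78.5% and last exons 74.8%. Replicate 1 had the higher value in 411 members (81.5%), beside 78.6% of all placed intervals, so the step between the replicates was general. Across members, the 2 replicates ordered the intervals less alike (Spearman rho 0.355) than across multi-exon intervals (0.620). The multi-exon mRNAs with their CDS in 1 exon (0.473) and the 2-exon mRNAs (0.478) lay between them. These coefficients are across intervals that share libraries, and 147 of the 513 members (28.7%) shared a peak, and with it that peak's value, with another member.

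**Figure D1:**
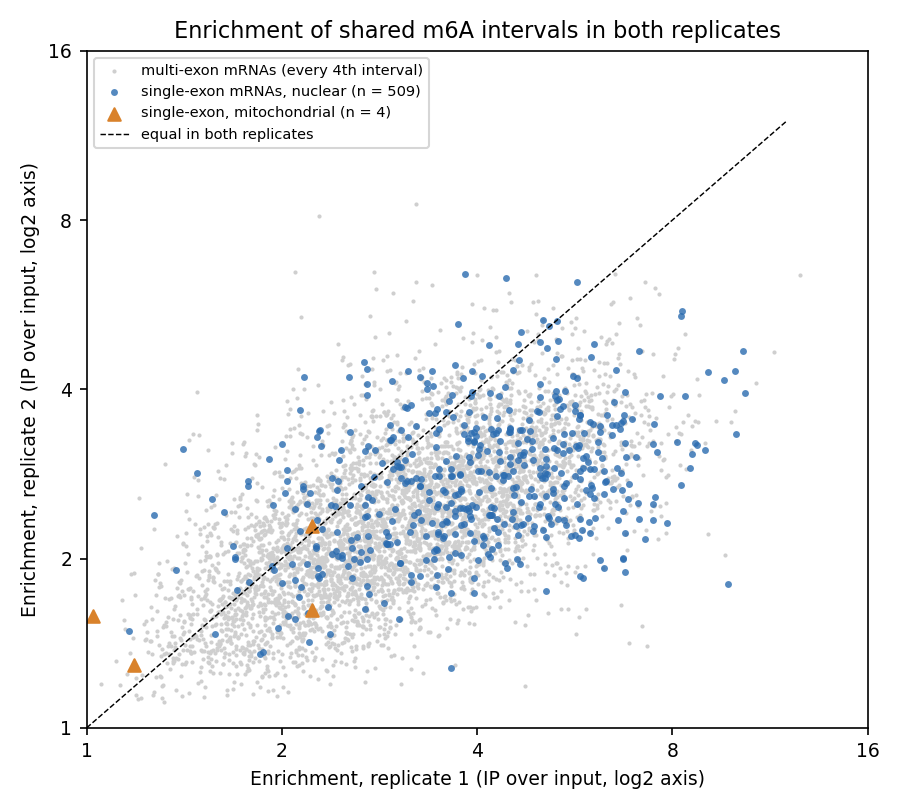
Enrichment (immunoprecipitated over input, log2 axes) of each shared interval in replicate 1 (horizontal) and replicate 2 (vertical). Blue points are the nuclear single-exon members, orange triangles the 4 mitochondrial ones, grey points every 4th multi-exon interval and the dashed line equal values. Most blue points lie right of the dashed line and the 4 triangles lie at the low end, with mt-Atp6 at 1.02 and 1.58.

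The exon number of the mRNA and the median Enrichment of its intervals ran in opposite order. Replicate 1 medians were 4.04 for 1 exon, 3.85 for 2 exons, 3.26 for 3 to 5, 3.01 for 6 to 10 and 2.85 for over 10. Replicate 2 medians were 2.74, 2.74, 2.48, 2.34 and 2.20 in the same order. Single-exon and 2-exon mRNAs were neighbours with nearly equal values, and their quartiles overlapped almost fully. Multi-exon mRNAs whose whole CDS lies in 1 exon gave medians of 3.88 and 2.81 over 803 intervals, so the log2 difference of the single-exon mRNAs was 0.06 in replicate 1 and turned to -0.03 in replicate 2. Internal exons over 400 nt gave 3.51 and 2.53, and last exons 3.38 and 2.58.

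The length of the exon itself showed the same order within spliced mRNAs. Multi-exon intervals in exons of up to 200 nt had medians of 2.34 and 1.82, those in exons of 1001 to 3000 nt had 3.44 and 2.57, and those in longer exons 3.62 and 2.70. Members in single exons of 1001 to 3000 nt had medians of 4.01 and 2.65 (215 intervals) and those in longer ones 4.12 and 2.81 (274 intervals). In both of these length classes, which are wide and within which lengths were not matched, the members had the higher medians in both replicates. Members were also longer than multi-exon intervals, with a median of 466 nt against 337 nt, and 12.5% of them exceeded 1000 nt against 4.06%. The median was 433 nt for multi-exon mRNAs with the CDS in 1 exon and 407.5 nt for 2-exon mRNAs. It was 404.5 nt in internal exons over 400 nt and 360 nt in last exons. The part of interval length in the Enrichment difference was not tested.

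**Figure D2:**
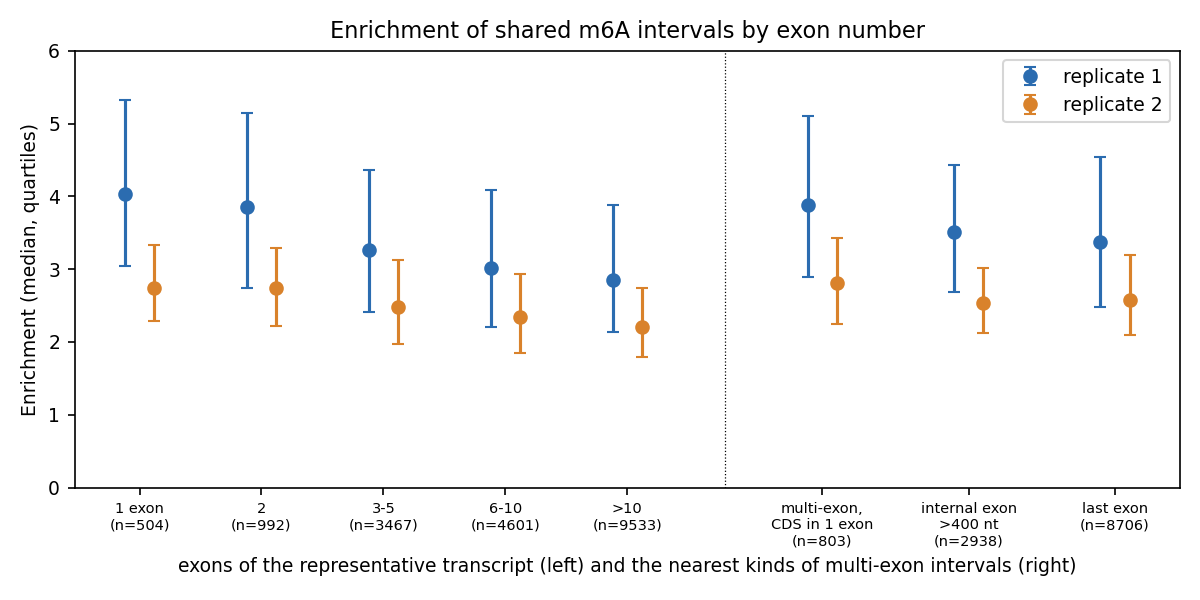
Median Enrichment (points) and quartiles (bars) of shared intervals in replicate 1 (blue) and replicate 2 (orange), by number of exons of the representative transcript on the left and for the most similar multi-exon intervals on the right, with the number of intervals under each class. The medians fell from 4.04 and 2.74 in single-exon mRNAs to 2.85 and 2.20 in mRNAs of over 10 exons, and the class with its CDS in 1 exon lay beside the single-exon class.

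Along the mRNA, most members lay in coding sequence, and the bins beside the stop codon held the highest shares, as in spliced mRNAs. Midpoints within 200 nt of the stop codon made up 139 of 503 members with an annotated stop codon, or 27.6% (95% Wilson interval 23.9 to 31.7%), where 23.0% of all placed intervals lay. The multi-exon share was 22.9%, a difference of 4.71 percentage points (95% Newcombe interval 0.936 to 8.82). Within 100 nt the difference was 0.847 points, and counting any base of the interval it was 12.9 points. With the peaks of replicate 2 alone it was 2.13 points and with 1 interval per gene 1.37 points, both with 95% intervals that held 0. Against multi-exon mRNAs with the CDS in 1 exon, whose share was 20.5%, it was 7.09 points (2.34 to 11.9). The stop codon window also made up more of the shorter single-exon transcripts, 14.6% of their length against 11.8%. Set against length, the share was 1.90 times the even share in single-exon mRNAs and 1.95 times in multi-exon mRNAs. Within 100 nt these ratios were 1.88 and 2.18, and for multi-exon mRNAs with the CDS in 1 exon the 200-nt ratio was 1.48. The 95% intervals take each shared interval as independent and cover counting error only.

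In single-exon mRNAs the 200 nt before the stop codon held more midpoints (77) than the 200 nt after it (61), whereas in multi-exon mRNAs the count was 1983 before and 2255 after. Multi-exon mRNAs with the CDS in 1 exon resembled the single-exon mRNAs in this, with 102 before and 63 after. Further downstream the members thinned out quickly, with 26 midpoints from 200 to 400 nt and 15 from 400 to 600 nt after the stop codon. When each CDS was cut into 4 parts of equal length, the last part held 106 of 305 members (34.8%), the one before it 80, the one before that 55 and the first 64. The last part was also the fullest in multi-exon mRNAs, with 31.9%.

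**Figure D3:**
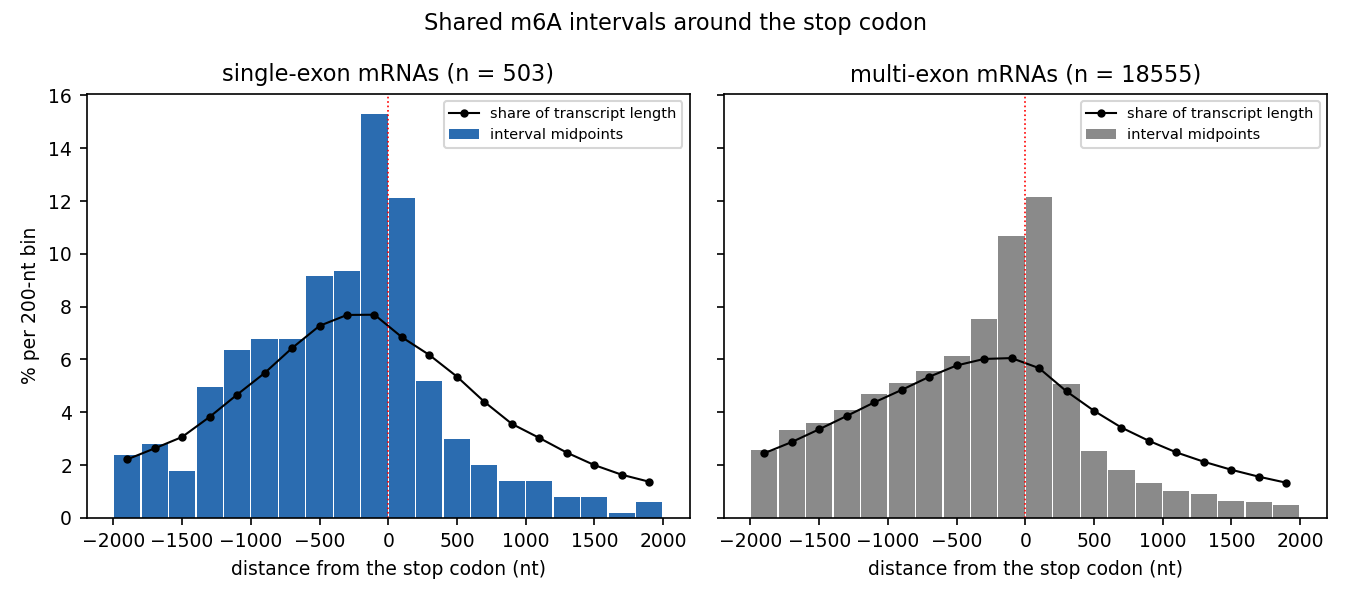
Share of interval midpoints per 200-nt bin (bars) by distance from the stop codon in nt (dotted line at 0, negative values upstream), for single-exon (left) and multi-exon mRNAs (right), with the share of transcript length in the same bin (black line). The 2 bins beside the stop codon rise above the length line on both sides, to 15.3% and 12.1% in single-exon mRNAs.

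The CDS held 305 members (60.5%, where 61.9% of all placed intervals lay), the 3′UTR 148 (29.4%, beside 29.0%) and the 5′UTR 51 (10.1%, beside 9.01%). The differences from multi-exon mRNAs were -1.46, 0.327 and 1.14 percentage points, and their 95% intervals all held 0. Without protocadherin beta genes the CDS difference was -5.09 points (-9.72 to -0.569), and with the peaks of replicate 1 alone -4.80 points (-8.83 to -0.873), so its interval depended on these choices. Taking 1 interval per gene, the CDS difference was 4.54 points and the 3′UTR difference -4.27 points, again with intervals that held 0. Because the CDS made up only 45.0% of single-exon transcript length but 54.4% of multi-exon length, members were 1.35 times as frequent in the CDS as its length gives, against 1.14 times in multi-exon mRNAs. In the 5′UTR this ratio was 0.913 against 1.23. Multi-exon mRNAs with the CDS in 1 exon had 1.55 in the CDS and 0.883 in the 5′UTR, and 2-exon mRNAs 1.44 and 0.861. Within 200 nt of the start codon lay 79 members (15.7%, beside 14.1% of all placed intervals).

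Enrichment followed position inside the single-exon mRNAs. Members within 200 nt of the stop codon had medians of 4.27 and 2.88, and CDS members more than 200 nt from either codon had 4.33 and 2.80. Members of the 5′UTR were lower, with medians of 3.09 and 2.46, as were those within 200 nt of the start codon, with 3.20 and 2.39. In spliced mRNAs the same places had 3.25 and 2.50 (stop codon), 3.10 and 2.27 (inner CDS) and 2.67 and 2.08 (5′UTR). Of these 3 places, the step between single- and multi-exon mRNAs was widest in the inner CDS.

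The shared intervals of a single-exon mRNA together took up a median of 34.0% of a single-exon transcript with a member, against 17.6% of a multi-exon transcript. The number of intervals per gene was lower, 1.76 against 2.15, with 156 genes holding 1 interval, 69 holding 2 and 62 holding at least 3. Transcripts with a member had a median length of 2737 nt and a CDS of 1092 nt, against 3499 and 1575 nt in multi-exon mRNAs.

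Ankrd63, Htr1a, Tmem121b, Adra2c and Pcdhb20 each had intervals both in the 3′UTR and upstream of the stop codon. Ankrd63, which encodes an ankyrin repeat protein, held 7 intervals over 4861 nt, and their Enrichment ran from 3.43 to 4.55 in replicate 1 and from 2.06 to 3.39 in replicate 2. Of these, 4 lay in its long 3′UTR, the farthest 2985 nt after the stop codon. Neighbouring Ankrd63 intervals that shared a replicate 1 value, 4.31 or 4.55, lay under the same replicate 1 peak. Htr1a, the serotonin receptor 1A, held 5 intervals, with 6.76 and 3.96 in the 5′UTR, 2.64 and 2.70 in the CDS, and 2.15 and 2.70 at 29 nt after the stop codon. Its highest replicate 2 value was instead the distal 3′UTR, with 3.26 in replicate 1 and 4.21 in replicate 2. The 3 middle Htr1a intervals lay under 1 wide replicate 2 peak, which is why they shared the value 2.70.

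Tmem121b, a transmembrane protein gene, held 5 intervals between 3.28 and 4.99 in replicate 1 and between 1.78 and 2.66 in replicate 2. Adra2c, the alpha-2C adrenergic receptor, held 4 intervals with the highest values at the 3′ end, 5.32 and 4.88 at 161 nt after the stop codon, and 3.34 and 2.19 in the 5′UTR. Pcdhb20, a clustered protocadherin, had its highest values at the 5′ end, 8.24 and 5.39 at 16 nt before the start codon, and 2.94 and 3.25 in the 3′UTR. Wide replicate 1 peaks also spanned neighbouring intervals of Adra2c, which shared 3.34, and of Pcdhb20, which shared 8.24.

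**Figure D4:**
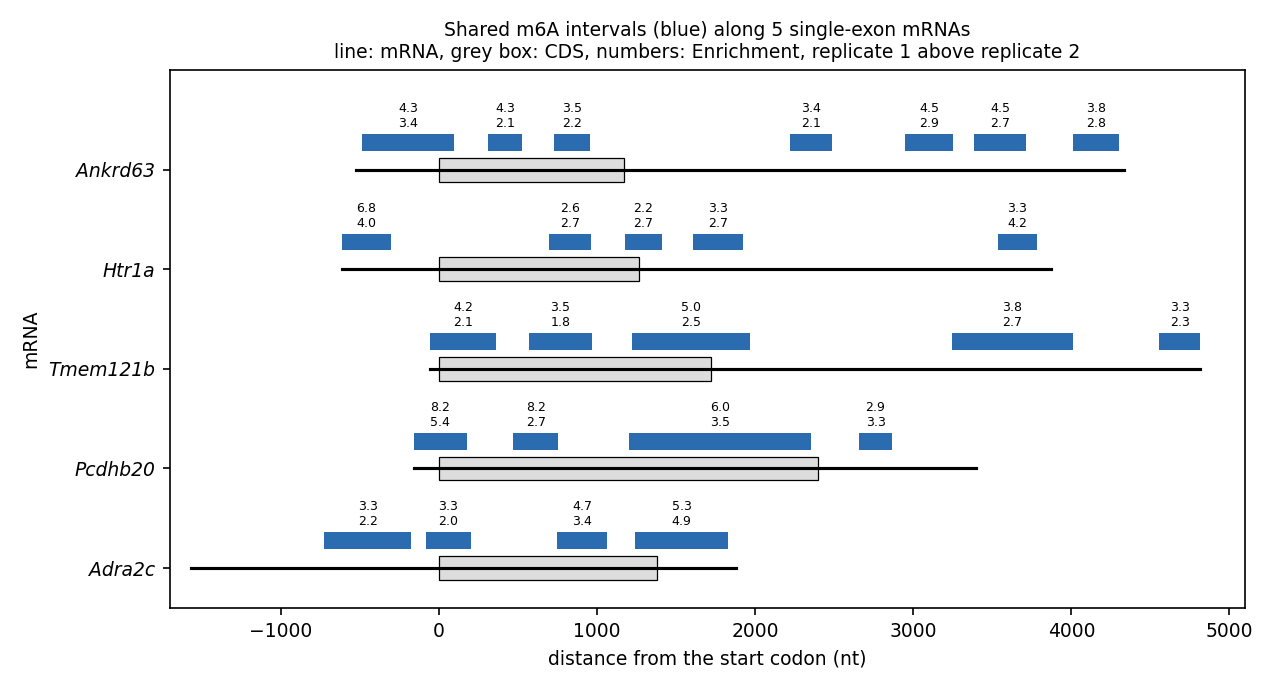
Shared intervals (blue bars) along 5 single-exon mRNAs with many members, by distance from the start codon in nt, with the mRNA as a line, the CDS as a grey box and the Enrichment of replicate 1 above that of replicate 2 over each interval. Ankrd63 carried 7 intervals, Htr1a and Tmem121b 5 each, and Pcdhb20 and Adra2c 4 each, the highest by the lower Enrichment of the 17 genes with 4.

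The strongest members by the lower of both Enrichments came from several families. Pcdhb11 had 5.71 in replicate 1 and 6.21 in replicate 2 near its start codon. Jrkl, related to the jerky gene and to transposase-derived DNA-binding proteins, had 8.26 and 5.51 in the CDS. Lpar6, a lysophosphatidic acid receptor, had 5.32 and 5.29 at 98 nt before the stop codon, and Hspb3, a small heat shock protein, had 5.17 and 5.18 at 162 nt before it. In these last 2 genes the replicates gave nearly the same value. Dio3, the deiodinase that inactivates thyroid hormone, had 10.3 and 4.69 at 20 nt after the stop codon, and Mars2, the mitochondrial methionyl-tRNA synthetase, had 6.05 and 4.82 in an interval of 1137 nt centred in its CDS. The remaining members of this group were Pcdhb20, B630019K06Rik, Adra2c, Pcdhb18, Gm42372 and Cd248, the last an endosialin gene with 7.09 and 4.68 at 73 nt after the stop codon. The highest replicate 2 value of all members was 6.42, in AI429214, which had 3.83 in replicate 1.

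Some members differed widely between the replicates. Cebpb, a basic leucine zipper transcription factor, had 9.73 in replicate 1 and 1.80 in replicate 2 at 76 nt after its stop codon, a ratio of 5.41. Adrb1, the beta-1 adrenergic receptor, had 6.76 and 1.89 in its CDS, and Gm45623 had 7.85 and 2.31. In the other direction Pnmal2 had 1.41 and 3.13 in the 5′UTR, Pcdhb13 had 2.16 and 4.20 in the CDS, and Cdk5r2, an activator of the neuronal kinase Cdk5, had 1.48 and 2.84. These were the 3 largest ratios in each direction, 1 per gene. The replicate 2 values of Pnmal2 and Cdk5r2 came from wide peaks that also covered another member of the same gene. At that other member replicate 1 was higher, with 4.85 beside the same 3.13 in Pnmal2 and 6.65 beside the same 2.84 in Cdk5r2.

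The lowest members were 2 mitochondrial mRNAs and 1 olfactory receptor. The mitochondrially encoded mt-Atp6, a subunit of ATP synthase, had 1.02 and 1.58, and mt-Nd1, a subunit of complex I, had 1.18 and 1.29. The mt-Atp6 interval was also the longest, at 5896 nt, and ran over many neighbouring mitochondrial genes, so it cannot be assigned to 1 of them. The longest nuclear members were in Pnmal2 (2695 nt) and Klhdc7a (1925 nt). The only olfactory receptor with a member, Olfr613, had 1.16 and 1.49 in a long annotated 5′UTR, 1081 nt before its start codon.

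The families of transcription factors differed in how many of their genes held a member. For comparison, 18.5% of the 1560 single-exon genes and 43.1% of all protein-coding genes held a shared interval. Of the multi-exon genes on the same lists, 8 of 11 SOX, 3 of 10 POU and 14 of 30 forkhead genes did. So did 12 of 24 basic helix-loop-helix, 26 of 33 AP-1 and immediate early and 292 of 405 zinc finger genes. In the SOX family of developmental HMG-box factors, 7 of 8 single-exon genes held 10 members with medians of 4.58 and 2.56. Sox2, the neural stem cell factor, had 8.98 and 3.12 at 256 nt before the stop codon, and Sox21 had 8.65 and 3.21 in its 5′UTR. Sox12 was the highest in replicate 2, with 4.06 and 4.23 in a distal 3′UTR interval. All 10 members of the SOX mRNAs had at least 2-fold Enrichment in both replicates, beside 85.3% of all members.

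In the POU family, 4 of 5 genes held 10 members with medians of 5.96 and 3.24. Pou3f4 had 8.36 and 3.89 in its 3′UTR, and Pou3f2 had 6.50 and 3.79 at 132 nt before its stop codon. Pou3f3 held 4 members, the strongest in the 5′UTR with 6.19 and 3.44. Of 14 forkhead genes 3 held members, with Foxd1 at 4.64 and 4.50 at 89 nt after the stop codon. Of 12 basic helix-loop-helix genes 5 held 9 members with lower medians of 3.09 and 2.25. Olig1, a factor of the oligodendrocyte lineage, had 5.05 and 2.25 in its CDS, and Atoh7 had 3.09 and 2.99 in its 5′UTR.

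The AP-1, C/EBP and other immediate early or related leucine zipper genes had a member in 11 of 12 single-exon genes, with medians of 5.10 and 2.70 over 15 members. In this list 10 of 15 midpoints lay within 200 nt of the stop codon, beside 27.6% of all members and 23.0% of all placed intervals. Jun, the AP-1 subunit, had 7.50 and 3.48 in an interval of 1335 nt centred 196 nt before the stop codon. Junb had 4.01 and 3.06 at 13 nt before it, and Ier2 had 4.20 and 3.41 at 74 nt after it. The intervals from 2 of these 3 genes held GGACT at the printed place. Zinc finger genes gave 4 of 5, with Zxdb at 3.73 and 5.22 beside its stop codon and Zfp830 at 6.54 and 3.45 in the CDS.

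**Figure D5:**
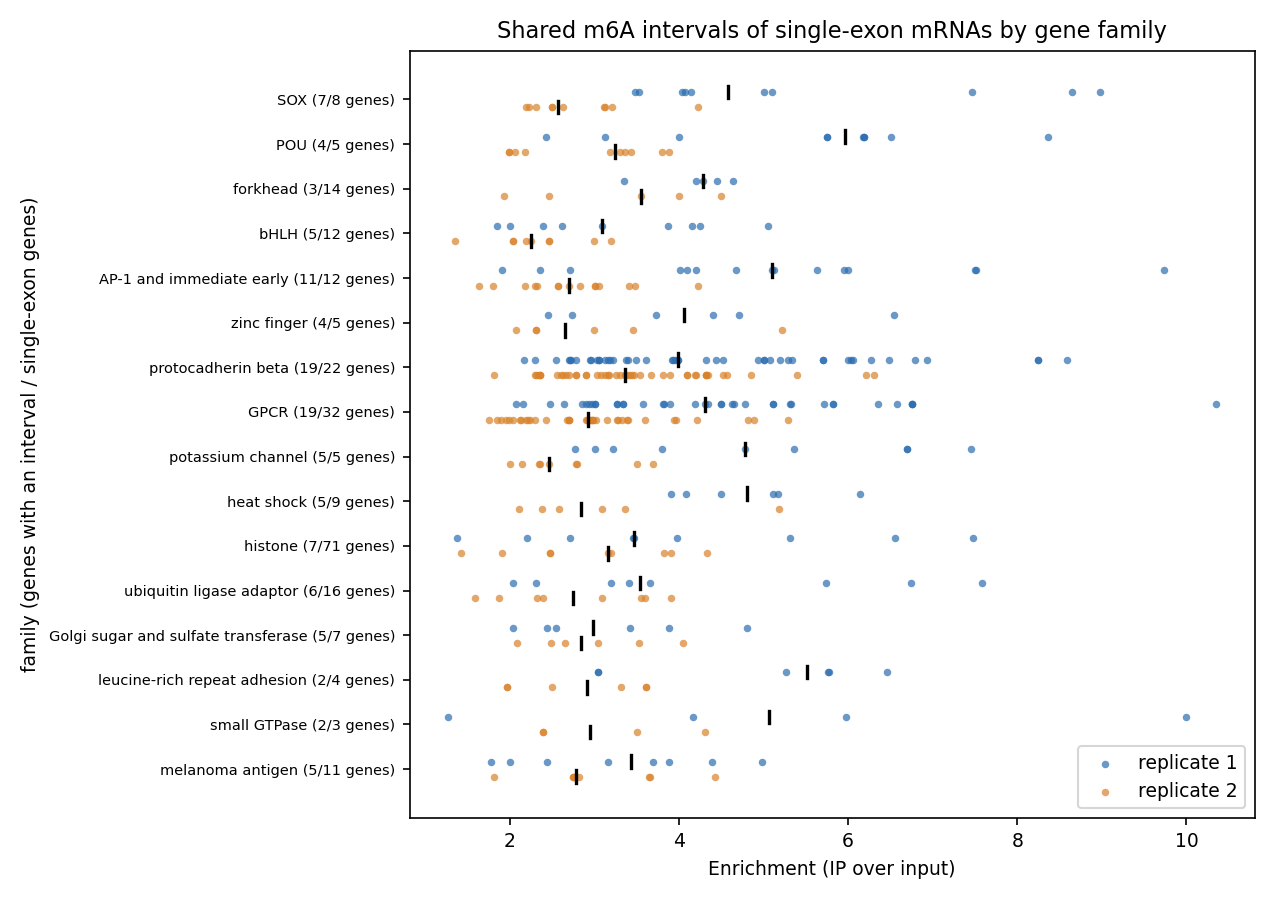
Enrichment of each member (points) in replicate 1 (blue) and replicate 2 (orange) by gene family, with medians as black ticks and, in the labels, the number of genes with a member out of all single-exon genes of the family. Families with at least 4 members are shown. Replicate 1 medians ran from 2.98 in the Golgi transferases to 5.96 in the POU family.

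Cell surface genes formed the largest groups. Of 22 single-exon protocadherin beta genes, which encode homophilic neuronal adhesion proteins, 19 held 47 members with medians of 3.99 and 3.36. Here 45 of 47 lay in the CDS (61.9% of all placed intervals did) and 5 within 200 nt of the stop codon (23.0% did). These counts were not set against the length of the CDS in these mRNAs. The replicate 2 median of this family exceeded the 2.74 of all members, while the replicate 1 median did not exceed 4.04. Without this family, the share at the stop codon was 29.4% and the CDS share 56.9%. The family members are close paralogs, and only uniquely mapping reads had been kept, so reads common to several of them are missing from these values.

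Of the 32 single-exon genes on the list of G protein-coupled receptors without sensory receptors, 19 held 39 members with medians of 4.30 and 2.92. Mc4r, the melanocortin receptor of feeding control, had 4.63 and 4.81 in its 5′UTR. All 5 single-exon potassium channel genes held members, 9 in all with medians of 4.78 and 2.46. Among the multi-exon genes of these 2 lists, 80 of 135 receptor and 57 of 89 potassium channel genes held a shared interval. Kcna5 had 5.36 and 3.70 in the CDS, Kcnf1 had 6.70 and 3.51, and Kcnj11, the pore subunit of the ATP-sensitive channel, had 2.77 and 2.80 in its 3′UTR. The synaptic leucine-rich repeat genes Slitrk1 (5.77 and 3.60 beside the stop codon) and Lrrc4 (5.27 and 2.50 in the CDS) held 3 members each.

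Among genes for protein handling, 5 of 9 heat shock genes held members. Hspa1a had 4.49 and 3.36 in the 3′UTR, Hspa1b had 5.11 and 2.58 in the CDS, and the pair is nearly identical in sequence, so the assignment between them is uncertain. Dnajc30 had 6.14 and 3.09. Of 16 adaptors of ubiquitin ligases 6 held members, with Kctd11 at 7.58 and 3.09, Fbxl14 at 6.75 and 3.60, Klhl9 at 5.73 and 3.55 and Kbtbd7 at 3.66 and 3.90. Of 7 Golgi sugar and sulfate transferases 5 held members, led by B3galt1 with 4.81 and 3.52 and B3galt6 with 3.42 and 4.05. Of 11 genes of the MAGE and necdin family 5 held members, among them Magel2 (3.69 and 4.42, at 45 nt before the stop codon) and Ndn (4.98 and 3.65, in the 3′UTR). The small GTPase Rhob had 5.97 and 3.50 in its 3′UTR, and Rassf10, a Ras-association domain gene, had 10.0 and 4.30 in its CDS. Multi-exon genes of these lists with a shared interval were 37 of 53 for heat shock and 163 of 252 for the adaptors. They were 51 of 76 for the transferases and 1 of 11 for the MAGE and necdin family.

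Several intronless families had few or no members. Of 71 histone genes 7 held members, 9 in all. Hist1h1c had 6.55 and 4.33, Hist1h1e 7.47 and 3.19, H2afx 5.31 and 3.82 and Hist2h2be 3.45 and 3.15. Olfactory receptors gave 1 of 199, and taste and vomeronasal receptors 0 of 114, keratin-associated proteins 0 of 57 and interferons 0 of 17. An mRNA that is absent, or that lacks the poly(A) tail used to isolate mRNA, gives no peak, so these counts do not separate expression from methylation.

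Over all families and the remaining genes, a member was found in 288 of 1560 single-exon genes, or 18.5% (95% Wilson interval 16.6 to 20.5%), where 43.1% of all protein-coding genes held a shared interval. Leaving out the olfactory, taste, vomeronasal, interferon and keratin-associated genes, 287 of 1173 held one (24.5%), and of the 937 single-exon genes in none of the families 178 did (19.0%). Multi-exon mRNAs with their CDS in 1 exon gave 21.1% of 2012 genes, and all multi-exon mRNAs 42.6% of 20306. The families named above were not left out of these 2 multi-exon classes, so only the 18.5% is a like comparison. Among multi-exon olfactory receptor genes, 0 of 935 held an interval. How many of them have their CDS in 1 exon was not counted. Expression was not measured in the peak files, and its part in these shares was not tested.

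The GGAC motif was more frequent in the members. It was searched on the gene's strand only, and GGACT counts are a subset of GGAC counts. In the 200 nt centred on the midpoint, 390 of 504 members held GGAC (77.4%, beside 69.5% of all placed intervals), and 179 held GGACT (35.5%, beside 27.8%). The GGAC share of multi-exon mRNAs was 69.3%, a difference of 8.11 percentage points (95% Newcombe interval 4.21 to 11.6). Against multi-exon mRNAs with the CDS in 1 exon it was 11.3 points. With the peaks of replicate 2 alone the difference was 1.90 points with an interval that held 0, and with those of replicate 1 alone 6.32 points. The intervals of single-exon mRNAs also had a higher GC content, 57.0% against 54.0%, whose part in the difference was not tested.

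Within the transcripts that held members, the motif lay inside the intervals more often than their share of the bases gives. The intervals covered 31.7% of the bases and held 50.3% of the 3863 GGAC motifs, a ratio of 1.59. In multi-exon mRNAs the corresponding ratio was 1.41, and for GGACT the ratios were 1.72 and 1.47. No GGAC was present in 52 members. The median member held 3 copies, and the Rassf10 interval held 11.

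Peaks of single-exon mRNAs were also found again in the other replicate more often. Of 597 replicate 1 peaks, 472 overlapped a replicate 2 peak (79.1%, against 69.3% for multi-exon mRNAs), and of 494 replicate 2 peaks 449 overlapped a replicate 1 peak (90.9%, against 77.3%). With an overlap of at least 50% of both peaks required, the difference turned to -2.45 points in replicate 1 and fell to 2.91 points in replicate 2. Against multi-exon mRNAs with the CDS in 1 exon it was 3.71 and 1.69 points. Shared peaks were long, with a median of 620 nt in replicate 1 against 305 nt for those without a partner. The strongest replicate 1 peaks without a partner were in Gm12689 (7.89), Bhlha9 (7.58) and the 5′UTR of Pou3f2 (7.22).

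Of the 513 members, 99 lay within the span of another protein-coding gene, 47 of them in protocadherin beta genes. The library kit does not mark strand, so in these 99 members reads of the gene and of the second gene's unspliced or opposite-strand RNA cannot be told apart.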

How the data were processed

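Poly(A)-selected RNA from whole brain was fragmented, immunoprecipitated with an anti-m6A antibody and sequenced beside its input (2 immunoprecipitated and 2 input samples). Per the study's methods, reads were trimmed, aligned to mm10 with TopHat (TopHat2 version 2.0.9 in the submitters' processing notes), kept if uniquely mapped, and peaks were called with MACS2 in each replicate against its input. The deposited Enrichment is the authors' fold enrichment, a ratio of immunoprecipitated over input signal, used as given. The depth per sample is not given in the sources used here, so no interval for single Enrichment values was computed.

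Peaks of both replicates were intersected (at least 1 bp) and placed on GENCODE M21 transcripts, both in Python (Python 3.11.15, pandas 2.3.3, pysam 0.24.0). Placement was tested on simulated positions. Shares carry 95% Wilson intervals (scipy 1.17.1) and their differences Newcombe intervals. No test was made over the 2 replicates, and intervals are not replicates. The study's methods call the replicates biological, and the labels do not say whether they came from separate animals.

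Named genes are the 12 members with the highest lower Enrichment, the 5 genes with most intervals (ties ordered by the lower Enrichment), up to 4 genes in each of 20 families, the 3 weakest, the 3 longest and the 3 with the largest replicate ratio in each direction, 1 per gene. Genes outside this rule are named after their values were seen (AI429214, Gm12689, Bhlha9, and those of the closing section). Values of some members are not reported here. Members and lists were chosen with earlier results of these data known. Alternatives covered the overlap, the transcript, the window, the motif, the comparison group, 1 interval per gene, single replicates and leaving out protocadherin beta or mitochondrial genes.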

Additional observations from a re-analysis of the deposited data

How the results depend on the processing

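Of 109 alternative values for 10 results, 91 were counted as unchanged. For shares this meant inside the reported 95% interval, and for the number of intervals within a ratio of 1.5. For log2 Enrichment it meant within the error between the replicates. This rule is wide. It passed 361 to 615 intervals against 513, and stop codon differences of 1.37 and 2.13 points whose own 95% intervals held 0. In all, 8 changed sign, of which 6 are CDS and UTR differences whose reported 95% intervals held 0; leaving out mitochondrial genes was added after seeing the data and moved none. With 1 interval per gene there were 288 intervals, the CDS difference was 4.54 points, the 3′UTR difference -4.27 points and the difference in shared replicate 2 peaks 9.02 points. With a 100-nt window the stop codon difference was 0.847 points, and counting any base of the interval 12.9 points. Against multi-exon mRNAs with the CDS in 1 exon, the 5′UTR difference was -1.96 points, the log2 Enrichment differences 0.057 and -0.034, and the differences in shared peaks 3.71 (replicate 1) and 1.69 points (replicate 2). Requiring Enrichment of at least 2 gave log2 differences of 0.22 and 0.086 and 18.1 points for shared replicate 1 peaks. An overlap of 50% of both peaks gave -2.45 and 2.91 points for the shared peaks. The GGAC difference was 13.4 points over whole intervals, and with single replicates it ranged from 1.90 to 6.32 points. The causes were not tested. No paired analysis was possible because all samples belong to 1 group. Only 2 replicates and unknown depth limit the precision, a peak absent from 1 list may lie just under the caller's threshold, and weakly expressed mRNAs may give none.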

Other observations

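Further groups among the single-exon mRNAs were collected after the list of members had been seen, and are given as values. Of all single-exon genes, 18.5% held a member. All 6 single-exon frizzled genes, the Wnt receptors, held members, 13 in all with medians of 4.30 and 2.95. These 6 genes and their members were already counted in the list of G protein-coupled receptors above. Fzd10 had 6.35 and 3.59 at 274 nt before its stop codon, and Fzd1 held 4 members between 3.82 and 5.11 in replicate 1. Genes derived from retrotransposon gag sequences (Rtl5, Rtl6, Rtl8a, Rtl8b, Ldoc1, Pnma1, Pnma3 and Pnmal2) gave 8 of 10, with 17 members and medians of 4.17 and 2.76. Of those 17, 9 lay in the 3′UTR (29.0% of all placed intervals did) and 1 within 200 nt of the stop codon (23.0%). The nucleosome assembly genes Nap1l2, Nap1l3, Nap1l5 and Tspyl1, Tspyl3, Tspyl4 and Tspyl5 gave 7 of 7 with medians of 3.78 and 2.52.

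Both activators of Cdk5, Cdk5r1 and Cdk5r2, held 3 members each, 5 of the 6 in the 3′UTR. Cdk5r1 had 4.47 and 3.67 at 187 nt after its stop codon, and Cdk5r2 had 6.65 and 2.84 at 167 nt after it. The paralogs Mab21l1 (6.07 and 2.36 at 174 nt before the stop codon) and Mab21l2 (6.86 and 2.72 at 92 nt before it) were marked at like places. Of 13 mitochondrially encoded mRNAs 4 held members, with Enrichment from 1.02 to 2.22 in replicate 1 and from 1.29 to 2.29 in replicate 2.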
